A study of Mus musculus with 9 samples.

Results

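The 9 genes described here encode chaperonins, the barrel-shaped complexes in which newly made proteins fold. They were taken by name from the RefSeq mouse annotation of assembly GRCm38. Of them, 7 (Tcp1, Cct2, Cct3, Cct4, Cct5, Cct7 and Cct8) encode subunits of TRiC, the chaperonin of the cytosol, and 2 (Hspd1 and Hspe1) encode the chaperonin of the mitochondrial matrix and its lid. Cct6a, the remaining TRiC subunit gene, is not among the 9 and is described below with other chaperone genes. The 9 genes were compared with 17492 protein-coding genes read in the same way, 8 of the 9 among them. Cct4, for which no start was at hand, was read at the end of its gene with the lower coordinate, and no list had a peak within 1 kb of its other end. Its summit positions are counted from that end into the gene.

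The study profiled chromatin of MYCN-driven T cell lymphoma cells from the thymus of C57BL/6J mice. The method was ChIPmentation, a chromatin immunoprecipitation in which a transposase adds the sequencing adapters to chromatin that is still bound to the antibody. Antibodies were directed against N-MYC, p300, EZH2, SUZ12, H3K27ac, H3K4me3 and H3K27me3, with 1 library and 1 peak list each, and 2 input libraries completed the series of 9 samples and were not analysed here. Every library came from this type of lymphoma, with no normal thymus, no tumour without MYCN and no replicate of any antibody. No test between conditions could therefore be made. The input libraries are titled input-m70 and input-m71, so the lists may not all come from 1 tumour. The labels name neither the promoter that drives MYCN nor the animal, age or number of tumours behind each immunoprecipitation. As a check of the cell type, 8 of 9 T-cell marker genes could be read, and all 8 carried both H3K4me3 and H3K27ac peaks at the start. Each of these marks was called at 51.1% of all protein-coding genes, and the share with both was not computed. The same pair was found at 1 of 2 B-cell markers (Cd79a), 0 of 2 myeloid markers, 1 of 4 thymic epithelial markers (Epcam) and 2 of 2 erythroid markers (Gata1 and Klf1, with H3K4me3 fold enrichments of 12.1 and 19.8 against a median of 31.8 at the T-cell markers), and neither endothelial marker was read. The part of other cell types in the results was not tested.

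TRiC, also called CCT, stacks rings of related subunits and folds actin, tubulin and many other cytosolic proteins, using ATP. Each subunit is the product of its own gene, and a working ring needs all of them. In mitochondria HSP60, the product of Hspd1, folds imported proteins together with its lid HSP10, the product of Hspe1, and this pair of genes lies head to head on the same stretch of DNA. N-MYC is a transcription factor of the MYC family, whose targets include many genes for protein synthesis and folding, and p300 is an acetyltransferase of active promoters and enhancers. EZH2 and SUZ12 are subunits of Polycomb repressive complex 2, which deposits H3K27me3, while H3K4me3 and H3K27ac mark active promoters.

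The genes lie on 8 chromosomes. Tcp1 spans bases 12916329 to 12925067 of chromosome 17 and runs on the plus strand, as do Cct3 (chromosome 3, 88297135 to 88321766) and Cct7 (chromosome 6, 85451505 to 85468477). Cct2 (chromosome 10, 117050997 to 117063852), Cct5 (chromosome 15, 31590800 to 31601846) and Cct8 (chromosome 16, 87483325 to 87495869) run on the minus strand. Cct4 spans 22990593 to 23003336 of chromosome 11. Hspd1 (55077833 to 55088243, minus strand) and Hspe1 (55088148 to 55091317, plus strand) share a promoter on chromosome 1, and their starts as read here lie 95 bp apart. Of the 2 starts listed for Hspd1, only the more upstream was read, and it lies inside Hspe1. The other lies 216 bp before the start of Hspe1.

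Promoter sequences from RefSeq (GRCm38.p6; 250 bases before to 50 after the start) were at hand for 8 of the 9 genes, all but Cct4. The promoters below are shown up to the base before the start, as far as they lie outside annotated genes, because they carry the motif that all 8 had in common. Capitals mark GGGCGG, the GC box bound by SP1-type factors, and CCGGAAG, the core bound by ETS factors, on either strand. They lie at chr10:117063853-117064102 on the minus strand (Cct2), chr3:88297000-88297134 on the plus strand (Cct3), chr15:31601847-31602096 on the minus strand (Cct5) and chr16:87495870-87496072 on the minus strand (Cct8).
Cct2: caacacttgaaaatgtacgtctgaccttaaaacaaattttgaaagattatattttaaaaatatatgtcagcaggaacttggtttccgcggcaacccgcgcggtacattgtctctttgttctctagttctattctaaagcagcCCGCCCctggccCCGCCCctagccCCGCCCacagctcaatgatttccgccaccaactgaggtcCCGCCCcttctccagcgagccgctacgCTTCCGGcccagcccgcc
Cct3: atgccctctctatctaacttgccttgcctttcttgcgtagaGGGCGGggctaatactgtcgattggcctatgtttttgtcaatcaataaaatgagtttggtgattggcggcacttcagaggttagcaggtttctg
Cct5: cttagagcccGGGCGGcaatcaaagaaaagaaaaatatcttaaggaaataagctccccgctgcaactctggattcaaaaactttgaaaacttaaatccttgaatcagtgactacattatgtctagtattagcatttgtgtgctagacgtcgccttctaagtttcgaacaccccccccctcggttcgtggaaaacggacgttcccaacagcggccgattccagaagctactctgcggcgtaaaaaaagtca
Cct8: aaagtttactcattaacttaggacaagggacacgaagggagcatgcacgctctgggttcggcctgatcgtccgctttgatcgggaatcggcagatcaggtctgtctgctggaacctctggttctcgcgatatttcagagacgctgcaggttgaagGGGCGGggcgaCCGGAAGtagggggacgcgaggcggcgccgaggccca

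GGGCGG was found in 8 of 8 chaperonin promoters, against 46.3% of all protein-coding promoters of this length. Most of this share is common to active promoters: among the 4354 genes with peaks in the 5 active lists (EZH2, N-MYC, p300, H3K27ac and H3K4me3) and in neither Polycomb list (SUZ12 and H3K27me3), 72.3% held it. CCGGAAG was present in 4 of 8 (Tcp1, Cct2, Cct8 and Hspe1), against 11.9% of all promoters and 24.1% of those 4354. The sites for N-MYC were fewer. CACGTG, the E-box bound by MYC proteins with their partner MAX, was found in 1 of the 8 promoters, that of Hspd1, against 7.91% of all promoters.

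The sites that bear on N-MYC and on the heat shock response are shown as 30 bases each, with the motif in capitals. They are the E-box of Hspd1 (chr1:55088306-55088335, minus strand), the related CACGCG of Cct3 (chr3:88296927-88296956, plus strand), and the heat shock cores of Hspe1 (chr1:55088053-55088082, plus strand) and Cct5 (chr15:31601862-31601891, minus strand). A heat shock core was any match to GAANNTTC or TTCNNGAA, the inverted repeats read by heat shock factors.
Hspd1, CACGTG: ggccggctgggaCACGTGaaaaggccgcgc
Cct3, CACGCG: acattctggccgCACGCGgccgggagcggc
Hspe1, heat shock cores: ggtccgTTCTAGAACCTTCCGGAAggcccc
Cct5, heat shock core: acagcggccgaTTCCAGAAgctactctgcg

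All 9 chaperonin genes carried peaks for the 5 active lists within 1 kb of the start, and none carried a SUZ12 or H3K27me3 peak. This combination occurred at 24.9% of all protein-coding genes. List by list, the count was 9 of 9 for EZH2 (44.9% of all protein-coding genes), N-MYC (33.2%), p300 (39.8%), H3K27ac (51.1%) and H3K4me3 (51.1%), and 0 of 9 for SUZ12 (12.3%) and H3K27me3 (23.7%). The result was the same over the full length of the H3K4me3 peak at the start, where 9 of 9 again had the 5 active lists and neither Polycomb list, against 50.3% of the 8936 protein-coding genes with such a peak. Over that length, EZH2 was called at 74.5% of the 8936 genes, N-MYC at 66.0%, p300 at 78.0%, H3K27ac at 93.3%, SUZ12 at 8.81% and H3K27me3 at 12.7%. Hspd1 and Hspe1 shared every peak, so the 9 genes stand for 8 promoters.

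The calls at the chaperonin genes are less unusual among promoters within their range of H3K4me3. H3K4me3 fold enrichment at the 9 genes ran from 20.3 to 45.8, a range that held 6107 of the 8936 protein-coding genes with an H3K4me3 peak. The range is broad because Cct3, at percentile 30.6, sets its lower end. The median of the 6107 genes was 30.8, against 36.3 at the 9 genes. Of the 6107, 87.0% had an EZH2 peak, 76.0% an N-MYC peak, 92.0% a p300 peak and 99.8% an H3K27ac peak, while 2.15% had SUZ12 and 4.08% had H3K27me3. The full combination was present at 65.0% of them. Each list ends at the authors' threshold, and a site without a peak there may still carry the protein or mark at a lower level.

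**Figure D1:**
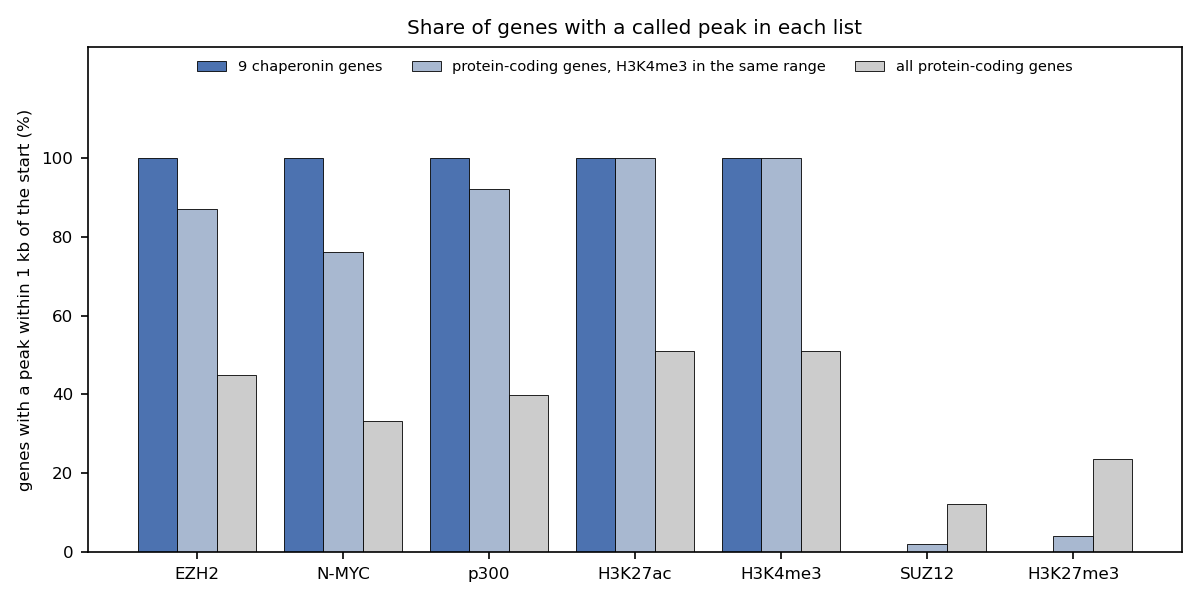
Bars give the percentage of genes with a peak within 1 kb of the start in each of the 7 lists, for the 9 chaperonin genes, for 6107 protein-coding genes whose H3K4me3 fold enrichment lies in the same range, and for all 17492 protein-coding genes read. The chaperonin genes stand at 9 of 9 in the 5 active lists and at 0 of 9 for SUZ12 and H3K27me3, where no dark bar is drawn.

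The nearest Polycomb peaks lay well outside these windows. Distances at other genes were not computed, and the H3K27me3 list holds 123056 peaks, so it is not known whether the distances are unusual. The nearest H3K27me3 peak lay between 20.6 kb (Cct8) and 136 kb (Hspd1 and Hspe1) from the start. Its fold enrichment was 3.41 at Cct8 and 4.34 at the Hspd1 and Hspe1 promoter, against a median of 9.08 at protein-coding genes with an H3K27me3 peak within 1 kb. The nearest SUZ12 peak lay 40.5 kb away at Cct3 and at Cct7, and 1690 kb away at Cct8. Its fold enrichment was 3.44 at Cct3, 6.58 at Cct7 and 3.87 at Cct8. The median at protein-coding genes with a SUZ12 peak within 1 kb was 5.71. EZH2 was thus called at these promoters with its partner SUZ12 and its product H3K27me3 both uncalled for at least 20.6 kb on either side.

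N-MYC and H3K27ac were the lists in which the chaperonin genes stood highest, each with a median percentile of 94.7 among protein-coding genes with a peak. The list of p300 was close to them, with a median percentile of 92.7. The fold enrichment of the strongest N-MYC peak, a linear ratio over background as deposited by the authors, was 8.87 at Cct3, 8.89 at Tcp1, 9.82 at Cct5, 11.0 at Cct8, 12.1 at Cct4, 13.0 at Cct2, 13.5 at Cct7 and 13.8 at Hspd1 and Hspe1. All 9 values lay above the median of 6.01 of the 5809 protein-coding genes with an N-MYC peak. The lowest, that of Cct3, stood at percentile 82.3 of those genes and the highest, that of Hspd1 and Hspe1, at percentile 97.6. Among genes of the same H3K4me3 range the median was 6.17, and the chaperonin genes stood at percentiles 81.2 to 97.5. The N-MYC peaks were also wide, with a median of 1321 bp against 590 bp, and from 739 bp at Cct5 to 1660 bp at Cct7.

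The 9 N-MYC values differed by 1.56 times between the lowest and the highest. With 1 library, the order of neighbouring genes, such as Cct3 and Tcp1 or Cct7 and Hspd1, has no replicate check. Hspd1, the 1 promoter with CACGTG in the 300 bases read, had the highest value, so the motif cannot be compared among the chaperonin genes. Of the 1032 protein-coding genes with N-MYC fold enrichment at or above that of Cct3, 17.3% had CACGTG in the same window. CACGCG was found in 2 of the 8 chaperonin promoters (Cct3 and Hspe1), against 12.2% of all promoters, and either motif in 3 of 8 against 18.7%. The shares were 24.5% and 33.8% among the 4354 genes with the same lists, and 33.3% and 44.5% among the 1032 with N-MYC at or above Cct3. With 8 promoters, nothing is read from these counts. No match says only that these letters are not in this window.

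EZH2 fold enrichment was 5.77 at Cct3, 6.82 at Cct2, 6.88 at Tcp1, 7.29 at Cct5, 7.61 at Cct4, 7.69 at Cct7, 9.40 at Hspd1 and Hspe1 and 9.69 at Cct8. Of the 9 values, 8 lay above the median of 5.83 of the 7855 protein-coding genes with an EZH2 peak, and Cct3 lay just below it, at percentile 49.2. Cct8 stood at percentile 92.6 and the mitochondrial pair at 91.5. The median of the 9 genes, 7.61, was 1.31 times that of genes in the same H3K4me3 range, a smaller ratio than the 1.96 found for N-MYC.

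For the acetyltransferase p300, fold enrichment was 6.14 at Cct4, 6.76 at Cct2, 6.89 at Cct8, 7.38 at Cct5, 8.51 at Cct3, 8.62 at Tcp1, 8.63 at Cct7 and 8.74 at Hspd1 and Hspe1. All 9 were above the median of 5.40 of genes with a p300 peak. Hspd1, Hspe1 and Cct7 were highest for both N-MYC and p300, but the order of the other genes differed. Cct4 and Cct2, with N-MYC values of 12.1 and 13.0, had the lowest p300 values. Cct3 and Tcp1, lowest for N-MYC, were among the higher ones for p300. The 9 p300 peaks ran from 1418 bp at Cct2 to 3643 bp at Hspd1 and Hspe1, with a median of 1882 bp against 1046 bp at all genes with such a peak.

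H3K27ac fold enrichment was 16.4 at Tcp1, 21.9 at Cct3, 24.6 at Cct5, 25.1 at Cct4, 25.2 at Cct8, 30.2 at Cct2, 30.6 at Hspd1 and Hspe1 and 32.3 at Cct7. Tcp1 stood apart at percentile 70.1, and the other 8 genes lay between percentile 89.3 (Cct3) and percentile 99.1 (Cct7). The median of the 9 genes was 25.2, against 12.4 for all protein-coding genes with an H3K27ac peak and 14.4 for those in the same H3K4me3 range.

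For H3K4me3 the highest value was 2.26 times the lowest, the largest such ratio among the 5 active lists. This ratio rests on Cct3, as the other genes ran from 31.1 to 45.8. The lists also differ in their range over all genes, so their ratios are not a like comparison. H3K4me3 fold enrichment was 20.3 at Cct3, 31.1 at Cct5, 33.5 at Cct8, 33.6 at Cct4, 36.3 at Cct7, 39.1 at Tcp1, 41.2 at Cct2 and 45.8 at Hspd1 and Hspe1. Cct3 was the 1 gene below the median of 26.6, at percentile 30.6, and the mitochondrial pair stood at percentile 98.9. The Cct3 peak was low but wide, 3704 bp, which is percentile 83.7 for width. Cct2 had the opposite shape, with a fold enrichment at percentile 93.7 and a width of 2229 bp at percentile 40.0.

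**Figure D2:**
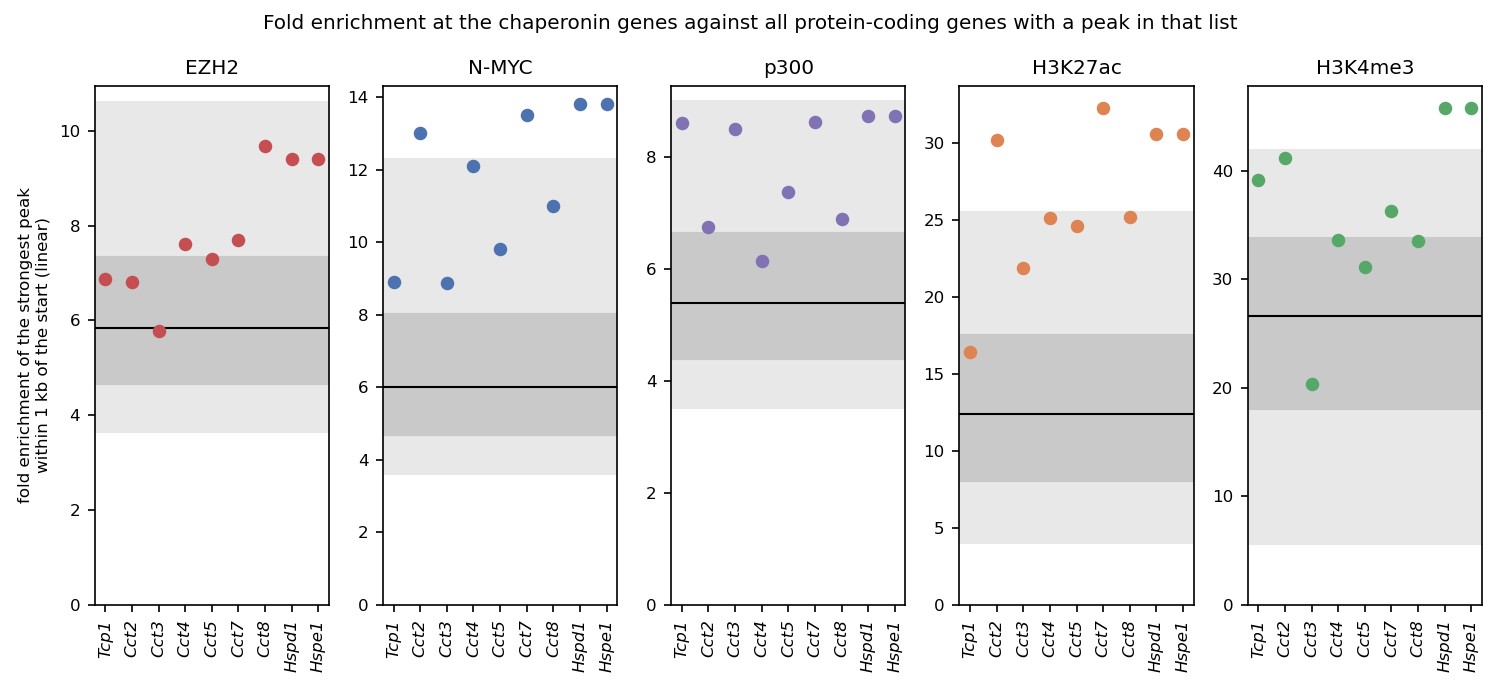
Each panel shows 1 list, with the fold enrichment (linear) of the strongest peak within 1 kb of the start as 1 point for each chaperonin gene. The black line is the median of all protein-coding genes with a peak in that list, dark grey their middle range between quartiles and light grey the range from percentile 5 to percentile 95. Every N-MYC, p300 and H3K27ac point lies above the median line, and Cct3 lies below it for EZH2 and H3K4me3.

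The summits had an order along the promoter. The strongest EZH2 peak had its summit inside the gene at 8 of 9 genes, from 167 bp after the start at Cct3 to 842 bp at Cct7. The exception, Hspe1, had it 695 bp before its start, on the side of Hspd1. N-MYC summits lay nearer the start, with a median of 108 bp after it against 367 bp for EZH2: 3 bp after it at Cct8, 40 bp at Tcp1, 108 bp at Cct4, 219 bp at Hspd1, 242 bp at Cct2, 281 bp at Cct5 and 635 bp at Cct7. At Cct3 and Hspe1 the N-MYC summit was 180 and 124 bp before the start. The unread start of Hspd1 lies 216 bp before that of Hspe1, and counted from there the same summit would lie before Hspd1 too. The 4354 genes with the same 5 lists and neither Polycomb list had medians of 9 bp for N-MYC and 282 bp for EZH2, so the order of the summits is one that these promoters share with active promoters in general.

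EZH2 followed the histone marks more closely than it followed N-MYC. The median distance of its summit from that of H3K4me3 was 77 bp, from 10 bp at Cct2 to 278 bp at Cct3, and from that of H3K27ac it was 51 bp. From the N-MYC summit it lay a median of 300 bp, from 125 bp at Cct2 to 571 bp at Hspd1 and Hspe1. The corresponding medians for the 4354 genes were 103 bp, 135.5 bp and 315 bp. N-MYC and p300 summits nearly coincided at Cct3 (2 bp), Cct8 (30 bp) and Cct5 (35 bp) and were far apart at Cct7 (619 bp) and Hspd1 (559 bp).

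At some chaperonin promoters EZH2 was called as separate peaks on either side of the N-MYC summit. At Hspd1 and Hspe1 there were EZH2 peaks of fold enrichment 9.40 and 7.41 with 261 bp between them, and the N-MYC summit lay in that gap. At Cct8 the EZH2 peaks had fold enrichments of 9.69 and 4.56 and were 180 bp apart, with the N-MYC summit 3 bp after the start between them. Cct3 had 3 EZH2 peaks, of fold enrichment 4.0, 5.77 and 4.79, and its N-MYC summit lay in the gap of 318 bp between the most upstream pair. Tcp1 also had 2 EZH2 peaks, but its N-MYC summit lay inside the stronger of them.

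Counted by gene, the N-MYC summit lay between EZH2 peaks at 4 of 9 genes, which are 3 promoters, and inside an EZH2 peak at the other 5. Among the 4354 genes with the same lists the shares were 5.44% between and 60.5% inside. The number of EZH2 peaks called differed too: 5 of the 9 chaperonin genes had 2 or more within 1 kb, against 19.3% of the 4354, and among the 841 of those with 2 or more the share between was 28.2%. No test was made of this difference, which rests on 3 promoters. Cct5 had 2 N-MYC peaks (fold enrichment 9.82 and 4.49) on either side of the start and a single EZH2 peak that began 75 bp after it and held the summit of the stronger N-MYC peak.

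**Figure D3:**
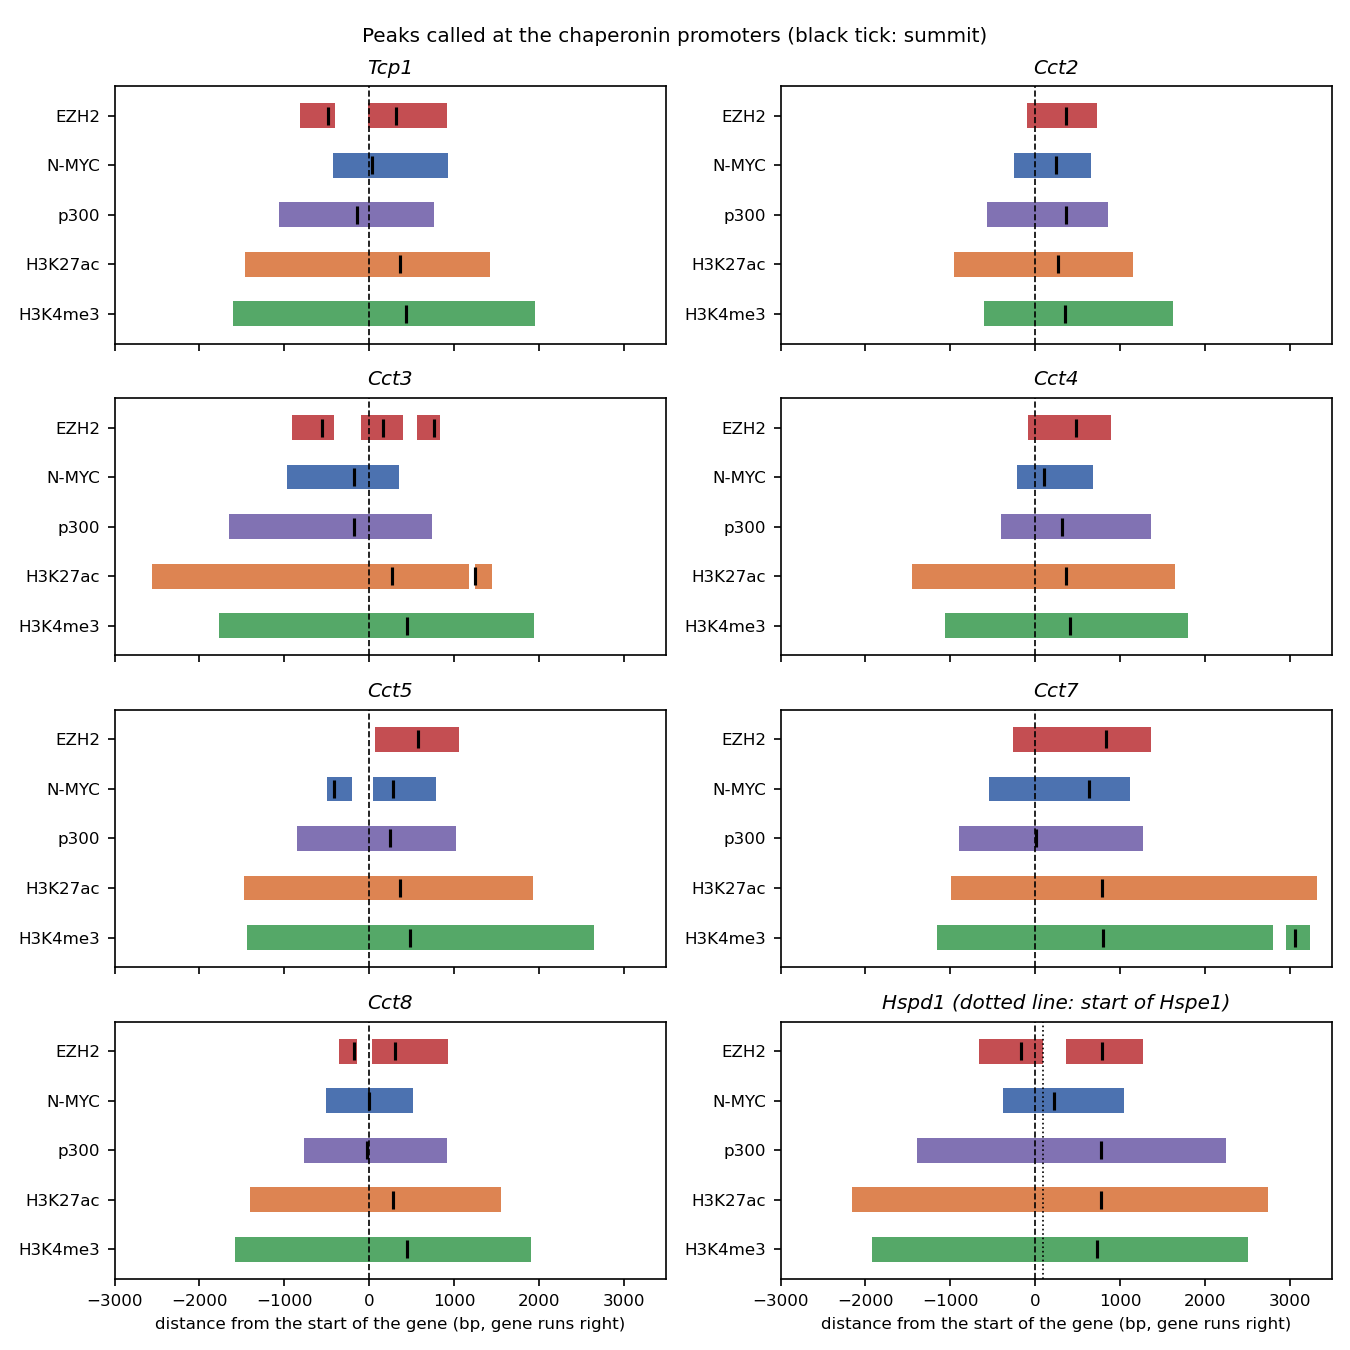
Bars show the extent of every peak of the 5 active lists around 8 chaperonin promoters, with distance from the start of the gene in bp on the horizontal axis, the gene running to the right and summits as black ticks. Hspe1 is read from the Hspd1 panel, where a dotted line marks its start 95 bp away. EZH2 appears as separate blocks at Tcp1, Cct3, Cct8 and Hspd1, and N-MYC appears as separate blocks at Cct5.

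The gap between the EZH2 peaks of the mitochondrial pair also holds the heat shock cores shown above. Hspe1 had 3 overlapping cores, with first bases 89, 84 and 79 bases before its start. Those at 84 and 79 also overlap matches to CCGGAAG. All 3 cores lay 38 to 48 bp from the N-MYC summit and outside both EZH2 peaks. Cct5 had 1 core, 34 bases before its start, in neither an N-MYC nor an EZH2 peak. Heat shock cores were present in 2 of the 8 chaperonin promoters and in 13.9% of all promoters. The E-box of Hspd1, 80 bases before its start as read here, was farther from the N-MYC summit, at 296 bp, and lay inside an EZH2 peak. Counted from Hspe1, this E-box lies inside the gene. The CACGCG of Cct3 lay 14 bp from the N-MYC summit, between EZH2 peaks.

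Other features of the promoters varied. TATAAA was found in 0 of the 8 chaperonin promoters, against 13.3% of all protein-coding promoters and 5.54% of the 4354 with the same lists. CCAAT was present in 4 of 8 (Tcp1, Cct3, Cct7 and Hspd1), against 39.2% of all promoters. The palindrome bound by NRF1 was present at Cct5 alone among the 8, against 1.33% of all promoters. The GC content of the 300 bases ran from 47.3% at Cct5 to 72.3% at Hspd1, on both sides of the median of 56.3% of all protein-coding promoters. The ratio of observed to expected CG dinucleotides was above the median of 0.577 in all 8, from 0.828 at Cct3 to 1.13 at Cct5.

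Most chaperonin genes share their promoter with another gene. A protein-coding gene on the opposite strand started within 1 kb at 6 of the 9 genes, against 9.31% of all protein-coding genes and 22.9% of the 4354 with the same lists. The partners were Mrpl18, a mitochondrial ribosomal protein gene, 238 bp from the start of Tcp1, Tsacc at Cct3, Atpsckmt 270 bp from Cct5, Pradc1 at Cct7, and Hspd1 and Hspe1 for each other. Cct8 had a lncRNA, B130034C11Rik, starting 204 bp away on the opposite strand, and no other start in the table lay near Cct2 or Cct4. Peaks at such a promoter cannot be assigned to either gene.

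The remaining TRiC subunit gene in this annotation, Cct6a, and its testis-type relative Cct6b were read with the partners of TRiC: the prefoldin genes, which hand substrates to it, and the phosducin-like and thioredoxin-like regulators. Cct6a had the 5 active lists, with N-MYC at 7.0, EZH2 at 6.42 and H3K4me3 at 34.3, and its start lies 103 bp from that of Psph. Its N-MYC value was below those of all 9 chaperonin genes. Cct6b had EZH2 (7.15), p300 (4.77), H3K27ac (27.4) and H3K4me3 (40.3) but no N-MYC peak, at a promoter shared with Zfp830, whose start lies 24 bp away.

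Of the 11 TRiC partners listed 9 were read, and of these 8 had EZH2 (44.9% of all protein-coding genes), 3 had N-MYC (33.2%), and 3 had the 5 active lists without Polycomb (24.9%): Cct6a, Pfdn2 and Txndc9. N-MYC was missing at Cct6b, Vbp1, Pfdn4, Pfdn5, Pfdn6 and Pdcl. At Pfdn4 the annotated start had EZH2 (8.98), SUZ12 (7.17) and H3K27me3 (15.1), and an H3K4me3 peak of fold enrichment 37.4 lay 15.2 kb inside the gene. Whether this annotated start is the one used in these cells was not tested, and its calls and its missing N-MYC peak hold for that start only. Among the prefoldin genes read, N-MYC was called at Pfdn2 alone.

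Mitochondrial folding and protease genes had calls like those of Hspd1 and Hspe1 but lower fold enrichment in each of the 5 active lists. All 7 that were read of the 9 listed (Grpel1, Dnaja3, Trap1, Clpp, Clpx, Lonp1 and Timm44) had the 5 active lists and neither Polycomb list. That combination was present at 24.9% of all protein-coding genes and 65.0% of those in the H3K4me3 range of the chaperonin genes. Their median N-MYC fold enrichment was 6.23, and the highest was 7.95 at Clpp, a matrix protease subunit. Their highest values were 8.03 for EZH2 (Trap1) and 6.39 for p300 (Dnaja3 and Clpp), against 9.40 and 8.74 at Hspd1 and Hspe1. For H3K27ac and H3K4me3 they were 20.3 and 34.7 (both Lonp1), against 30.6 and 45.8. The 6 substrates of TRiC that were read of 8 listed, actin and tubulin genes, also all had this combination, with a median N-MYC value of 4.68 and a highest value of 9.72 at Tuba1b.

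Of 12 heat shock genes of the HSP70 and HSP90 systems, 8 were read, and they fell into separate sets. The 6 genes Hspa4, Hspa14, Hsph1, Stip1, Dnaja1 and Dnajb1 had the 5 active lists without Polycomb (24.9% of all protein-coding genes), with N-MYC from 4.67 at Stip1 to 8.70 at Dnaja1. The stress-inducible genes Hspa1a and Hspa1b had EZH2 (9.53 and 6.66) together with SUZ12 (8.24 and 8.36) and H3K27me3 (15.8 and 11.9), H3K4me3 (6.93 and 11.2), H3K27ac (5.64 and 13.0) and p300 (2.67 and 4.65) and no N-MYC. Those last genes are near-identical copies, so their reads may have been divided between them. EZH2 fold enrichment at Hspa1a, 9.53, lay between the values of Hspd1 and Cct8, which had N-MYC and lacked SUZ12 and H3K27me3. The chaperonin-like genes Mkks, Bbs10 and Bbs12, which act in assembling a ciliary protein complex, had p300, H3K27ac and H3K4me3 at 3 of 3. N-MYC was called at 2 of 3 (Mkks 5.59 and Bbs10 5.26), and EZH2 at 0 of 3. The shares of all protein-coding genes were 39.8% for p300, 51.1% for H3K27ac and for H3K4me3, 33.2% for N-MYC and 44.9% for EZH2.

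Over these 33 other genes, which include the TRiC subunit gene Cct6a, 24 had an N-MYC peak, against 33.2% of all protein-coding genes. Of the 24, 1 (Tuba1b) had an N-MYC fold enrichment above that of Cct3, the lowest chaperonin gene. Of all 17492 protein-coding genes read, 5809 had an N-MYC peak and 1032 stood at or above Cct3, so most genes with an N-MYC peak lie below that value. For EZH2 the same comparison gave 16 genes above the lowest chaperonin value, and for H3K4me3 27, both values being those of Cct3. Cct3 stood at percentile 82.3 for N-MYC, 49.2 for EZH2 and 30.6 for H3K4me3, so the lists were compared at unlike ranks. Above the next lowest chaperonin gene there were 8 for EZH2, 11 for H3K4me3 and 1 for N-MYC. Above the chaperonin median there were 5 for EZH2, 5 for H3K4me3 and 0 for N-MYC. Above the lowest, next lowest and median chaperonin values there were 15, 9 and 6 for p300. For H3K27ac, whose median percentile of 94.7 equalled that of N-MYC, there were 17, 5 and 3. The lists were chosen by function and hold few genes, and no test was made.

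**Figure D4:**
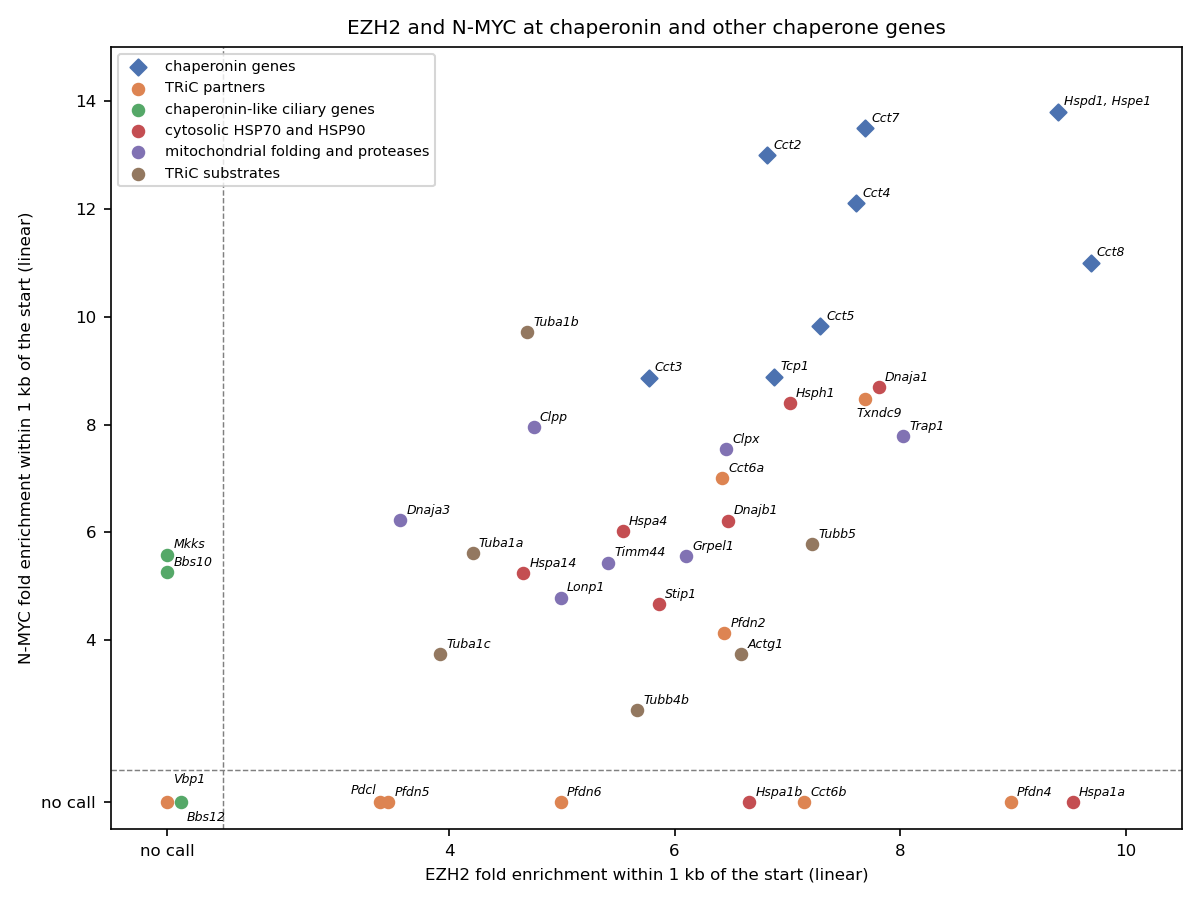
Each point is a gene, or the shared Hspd1 and Hspe1 promoter, with EZH2 fold enrichment on the horizontal and N-MYC fold enrichment on the vertical axis (both linear, strongest peak within 1 kb of the start). Genes with no call stand beyond the dashed lines. The 9 chaperonin genes described here (diamonds) occupy the top of the plot, with N-MYC from 8.87 to 13.8. Cct6a, a TRiC subunit gene not among the 9, is plotted with the TRiC partners and has N-MYC at 7.0. Of the other genes plotted, Tuba1b alone lies above their lowest value.

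The genes most like the chaperonin genes in the 5 active lists were sought among 4342 protein-coding genes with the same calls. Likeness was the Euclidean distance, in percentile points over the 5 lists, from the medians of the chaperonin genes. The nearest were Nelfa (7.22), a subunit of the negative elongation factor, Atm and Npat (8.56 each), which share a promoter, Ptbp1 (9.34), a splicing regulator, and Nfe2l2 (9.35), a transcription factor of the oxidative stress response. The chaperonin genes themselves lay between 5.19 (Cct7) and 61.1 (Cct3) from their own medians, and the median of all candidates was 84.9. These medians were set by the chaperonin genes, with the shared Hspd1 and Hspe1 promoter counted for both genes. The chaperonin genes lie near them by construction, so the value of 84.9 does not measure how alike they are. Cct3 was the chaperonin gene farthest from these medians. Nelfa had N-MYC at 10.6 and EZH2 at 7.68, and Ptbp1 had 12.8 and 7.52.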

How the data were processed

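Each of 7 immunoprecipitations of lymphoma chromatin, made by ChIPmentation per the labels' protocols, had 1 peak list. The submitters' processing notes name FastQC, Bowtie2, SAMtools, MACS2 and deepTools and the builds mm10 and GRCm38. The peak caller's options, its control library and any pooling are not given in the sources used here, and read depth is unknown. Fold enrichment was deposited by the authors for each peak as a linear ratio. The deposited p-value and q-value are −log10 values, and the smallest −log10 q was 2.00 to 2.08 over the lists. A further deposited score entered no result.

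Gene starts were the most upstream starts of the RefSeq promoter table (GRCm38.p6). A gene carried a peak when at least 1 bp of it lay within 1 kb of the start, and the strongest peak stood for its list. Percentiles are ranks among protein-coding genes with a peak in that list. Motifs were searched on both strands. The steps were tested on simulated data and used Python 3.11.15, numpy 2.4.6, pandas 2.3.3 and matplotlib 3.10.9.

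The genes, lists and alternatives were chosen with earlier results of these data known. All 9 members were named, with the genes of other chaperone lists that lacked a call most of their list had, Cct6a and Cct6b, neighbouring starts, and the 5 genes nearest in percentile ranks. Examples named beside these, and the genes with the highest or lowest value in a list, were chosen after their values were seen, as were the comparison with genes of the same H3K4me3 range and the position of N-MYC summits relative to EZH2 peaks.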

Additional observations from a re-analysis of the deposited data

How the results depend on the processing

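For 15 counts of chaperonin genes, 79 alternative values were computed. Of these, 33 could not have differed: wider windows where all 9 genes already had a peak, stricter readings where none had, H3K4me3 peaks read over themselves, and the shortest list, N-MYC, which is kept whole when lists are made equal. Of the other 46, 45 equalled the reported count, but many of these also follow from the peak values. Over the strongest active peaks of the 9 genes, the lowest fold enrichment was 5.77 and the lowest −log10 q 10.3, so both thresholds keep them. The nearest Polycomb peak lay 20.6 kb away, beyond the wider windows. At the start, the 5 active lists stayed at 9 with a window of 500 bp, with the summit in the window, at a q-value of at most 1e-05 and at a fold enrichment of at least 4, and those other than N-MYC also with lists of equal length holding the 9798 peaks of lowest q-value. Over the H3K4me3 peak, EZH2, N-MYC, p300 and H3K27ac stayed at 9 with an overlap of 50% of the shorter peak, both thresholds and equal lists. SUZ12 and H3K27me3 stayed at 0 with windows of 2 kb and, chosen after seeing the data, 10 kb. The 1 promoter with CACGTG became 3 when CACGCG was counted too, since that adds a motif, and stayed at 1 when every listed start of a gene was read, also chosen after seeing the data. The search of whole N-MYC peaks for CACGTG was not run because no genome sequence was used here. No paired analysis was possible because each antibody had 1 library. Fold enrichments and summit positions have no replicate, so their error is unknown.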
